A study of Homo sapiens with 9 samples.

Results

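The sirtuins are the 7 human genes SIRT1 to SIRT7, and all 7 were found by symbol as 1 row each in the RNA-seq tables of CA46 cells, among 23221 named features. Each averaged 1 FPKM or more, a level corrected for gene length and library depth, which was the minimum at which 11202 features were kept. Sirtuins remove acetyl and longer acyl groups from lysine side chains and consume NAD in doing so, which ties them to the energy state of the cell. SIRT1, SIRT6 and SIRT7 are mainly nuclear, SIRT2 is mainly cytosolic, and SIRT3, SIRT4 and SIRT5 are mitochondrial. The study's title names acetylation of the succinate dehydrogenase subunit SDHA downstream of MYC, and SIRT3 is a known deacetylase of SDHA. These libraries measure mRNA and hold no value for protein or acetylation.

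CA46 is an established human B lymphocyte line that carries a Burkitt translocation of MYC. Virus carrying a non-targeting control (NTC) shRNA or a Myc shRNA acted for 48 h, and for the final 20 h of these the medium received PBS or dimethyl succinate (DMS, 10 mM), a cell-permeable succinate ester. This gave 4 RNA-seq libraries, 1 for each pairing of virus and medium, so a comparison of 2 libraries has no replicate check. In bulk libraries of this kind fewer cells of a type and less RNA per cell cannot be told apart. All groups are the same line, and how many hairpins were used is not given in the sources used here.

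MYC, the target of the shRNA, stood at 1888 FPKM in control cells in PBS, 1668 in control cells in DMS, 17.2 in knockdown cells in PBS and 632 in knockdown cells in DMS. The knockdown library in DMS thus kept 37.9% of the MYC mRNA of its control, against 0.913% in PBS, so the knockdown groups differ in MYC level as well as in medium. The log2 change of MYC over both media was -4.05 with a standard error of 1.09 (limma, adjusted p = 0.0226). Sequencing depth was not given. As a rough stand-in, the median of FPKM times gene span, over short genes within a preset low window, was taken as a single fragment. It gave 22.7 to 25.8 fragments per kilobase for each FPKM, over 20 to 34 genes per library. The window itself bounds this estimate, and no step in the values was tested. Rows without a gene name took 14.3% to 15.7% of the deposited FPKM in control libraries and 22.4% to 25.2% in knockdown libraries. B cell markers were present, and MS4A1, CD79A, PAX5 and CD22 rose in the knockdown over both media, with CD79A at 716 to 1076 FPKM in control and 1592 to 2575 FPKM in knockdown libraries. The 4 T cell markers summed to 8.38 to 9.93 FPKM, mostly CD3E, with CD3D below 1 FPKM in every library, while CD2 rose by 0.97 in the knockdown, from 0.546 and 0.189 FPKM in control cells in PBS and DMS to 1.80 and 1.52. The 6 myeloid markers summed to 12.3 to 26.2 FPKM in control and 108 to 176 FPKM in knockdown libraries, and ITGAM, LYZ and CD68 rose in the knockdown, while MPO was listed at 0 throughout and CD14 and CSF1R stayed below 1 FPKM. The part of these shifts in the sirtuin values was not tested.

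The nuclear members SIRT6 and SIRT7 were the most abundant sirtuin mRNAs and the mitochondrial members SIRT4 and SIRT5 the least. Mean levels (± SD over the 4 libraries, which are 4 different conditions) were 29.0 ± 2.74 FPKM for SIRT6, 26.5 ± 8.79 for SIRT7, 18.3 ± 3.31 for SIRT2, 9.24 ± 1.55 for SIRT3, 7.25 ± 0.940 for SIRT1, 2.82 ± 0.360 for SIRT5 and 1.26 ± 0.404 for SIRT4. FPKM is per length, so levels of different genes can be set beside each other. The ranges of SIRT6 and SIRT7 overlapped, as did those of SIRT7 and SIRT2 and those of SIRT3 and SIRT1. These ranges span 4 conditions, so their overlap does not show that the levels were alike. Within libraries SIRT7 exceeded SIRT2 in 4 of 4, SIRT6 exceeded SIRT7 in 3 and SIRT3 exceeded SIRT1 in 3. SIRT2 lay above SIRT3, SIRT1 above SIRT5 and SIRT5 above SIRT4 in 4 of 4 libraries with no overlap. Among all kept features the family ran from percentile 2.196 (SIRT4) to percentile 72.6 (SIRT6) of mean level.

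**Figure D1:**
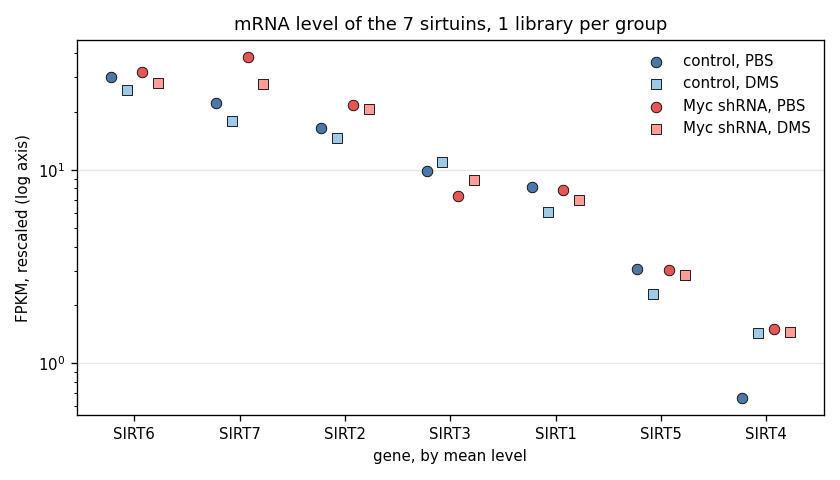
Rescaled FPKM (log axis) of each sirtuin in the 4 libraries, ordered by mean level from SIRT6 to SIRT4, with 1 point per library. SIRT7 is highest in the Myc shRNA library in PBS (38.2 FPKM) and SIRT4 is lowest in the control library in PBS (0.658 FPKM).

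Over both media SIRT7 was the only sirtuin that passed the test for the Myc shRNA, and it rose. SIRT7, a nuclear deacylase that acts at ribosomal RNA genes and on histone H3, was 22.05 FPKM in control cells in PBS, 17.9 in control cells in DMS, 38.2 in knockdown cells in PBS and 27.8 in knockdown cells in DMS. Both knockdown libraries lay above both control libraries, and within each virus the DMS library was the lower. The ratio of knockdown to control was 1.73-fold in PBS and 1.55-fold in DMS. In an additive limma fit of virus and medium, with 1 residual degree of freedom for a gene and the spread moderated over all features, SIRT7 rose by 0.69 log2 units, with a standard error of 0.17, and was higher in 2 of 2 media (limma, Benjamini-Hochberg adjusted p = 0.0161). The 95% interval of its change ran from 1.21-fold to 2.14-fold. SIRT7 was 1 of 7 members that rose and 0 of 7 fell, beside 27.7% of all features that rose and 27.7% that fell, so 1 of 7 is no more than the background share. Without the medium term the adjusted p was 0.0564 by limma. Leaving out a library as well gave a log2 change of 0.83 without the control library in PBS and 0.54 without that in DMS. The log2 change was 0.46 without the knockdown library in PBS and 0.91 without that in DMS. Each such fit leaves 1 library in a group, so only its log2 change is given. Whether the libraries are separate cultures is not stated. With 1 library per group, the residual of the additive fit is the difference in the knockdown change between the 2 media. The p-value of that fit sets the change against this difference, moderated over all features, and not against a spread of replicates. Technical spread enters the same residual.

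SIRT3, the main mitochondrial deacetylase, lay below control in both media but did not pass the test. It stood at 9.82 FPKM in control cells in PBS, 10.99 in control cells in DMS, 7.34 in knockdown cells in PBS and 8.80 in knockdown cells in DMS. Both knockdown libraries were below both control libraries, and DMS was the higher medium within each virus, the reverse of SIRT7 in both respects. SIRT3 in the knockdown was 74.8% of control in PBS and 80.1% in DMS. The limma log2 change was -0.33 (SE 0.14, adjusted p = 0.0916 by limma), with a 95% interval from 0.623-fold to 1.01-fold. On the FPKM as deposited the log2 change was -0.45 and passed the threshold (adjusted p = 0.0417 by limma), where the median of all features was itself at -0.11. Without the medium term and without each library in turn the log2 change ran from -0.45 to -0.22. Each such fit left 1 library in a group.

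SIRT2, which deacetylates tubulin and cytosolic and nuclear proteins, stood at 16.5 FPKM in control cells in PBS, 14.6 in control cells in DMS, 21.6 in knockdown cells in PBS and 20.6 in knockdown cells in DMS. Here too the knockdown libraries lay above the control libraries without overlap. The log2 change was 0.42 (SE 0.16), with an unadjusted p = 0.0376 and an adjusted p = 0.064 by limma, outside the threshold. Without the medium term and without each library in turn the log2 change ran from 0.34 to 0.50. Each such fit left 1 library in a group.

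The other nuclear members lay close to control in both media. SIRT6, a deacylase of histone H3 with roles in DNA repair and glucose metabolism, was 30.3 and 25.7 FPKM in control cells in PBS and DMS, and 32.0 and 28.0 FPKM in knockdown cells. Its libraries overlapped between viruses and the PBS library was the higher within each. The 95% interval of its knockdown change ran from 0.806-fold to 1.42-fold by limma, and its sign turned on the FPKM as deposited (-0.02 against 0.10). SIRT1, the best-known deacetylase of p53, FOXO factors and histones, was 8.10 and 6.05 FPKM in control cells in PBS and DMS, and 7.89 and 6.95 FPKM in knockdown cells. The control libraries enclosed the knockdown libraries, the log2 change was 0.07 (-0.04 on the FPKM as deposited), and its 95% interval ran from 0.821-fold to 1.34-fold by limma.

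The promoter of SIRT1 is shown because MYC and MAX bind the E-box letters CACGTG, and SIRT1 alone among the members searched holds them near its start site. RefSeq windows (GRCh38.p14) of 250 bases before to 50 after a start site were matched for 6 of 7 members, SIRT1 to SIRT6, in 9 windows. Both strands were searched, and CACGTG reads the same on each. The SIRT1 window, chr10:67884406-67884705 on the plus strand, held the letters at -123 to -118 and at -44 to -39 from the start site counted as 0. They are in capitals here, beside the SIRT3 window at chr11:236882-237181 on the minus strand, which held none and is shown because SIRT3 acts on SDHA:
SIRT1 promoter: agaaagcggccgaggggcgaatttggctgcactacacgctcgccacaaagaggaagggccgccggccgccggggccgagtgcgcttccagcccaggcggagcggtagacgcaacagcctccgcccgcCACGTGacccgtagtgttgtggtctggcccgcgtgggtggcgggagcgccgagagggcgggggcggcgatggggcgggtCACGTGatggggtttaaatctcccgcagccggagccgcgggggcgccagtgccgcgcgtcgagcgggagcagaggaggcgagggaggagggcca
SIRT3 promoter: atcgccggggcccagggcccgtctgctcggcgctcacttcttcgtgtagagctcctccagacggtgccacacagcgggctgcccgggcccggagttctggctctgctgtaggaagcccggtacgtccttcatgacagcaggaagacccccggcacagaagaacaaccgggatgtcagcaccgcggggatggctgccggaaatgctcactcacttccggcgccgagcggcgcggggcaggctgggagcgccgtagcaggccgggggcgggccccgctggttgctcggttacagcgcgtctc
Of 35116 such windows 7.26% held CACGTG, and 0.664% held it at 2 or more places. The related letters CACGCG, found in 11.4% of windows on either strand, occurred once among the members, in the SIRT1 window at -94 to -89, and CACATG, found in 11.1%, in none. No match overlapped another. A match describes letters in a window and not binding, and the SIRT1 mRNA did not pass the test for the knockdown.

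The remaining mitochondrial members were low. SIRT5, which removes succinyl, malonyl and glutaryl groups, was 3.06 and 2.29 FPKM in control cells in PBS and DMS, and 3.05 and 2.86 FPKM in knockdown cells. SIRT5 thus had 3 libraries close together and the control library in DMS below them. Its knockdown change was 0.11 on the log2 scale, with a 95% interval from 0.842-fold to 1.39-fold by limma. SIRT4, a mitochondrial lipoamidase and ADP-ribosyltransferase that restrains glutamate dehydrogenase, was 0.658 FPKM in control cells in PBS, 1.44 in control cells in DMS, 1.51 in knockdown cells in PBS and 1.44 in knockdown cells in DMS. Here 1 library, the control in PBS, stood apart below the other 3, which lay close together. By the rough estimate from low values, that library held about 15.5 SIRT4 fragments per kilobase, against 34.1 to 37.99 in the others. The preset window bounds that estimate, so the number of fragments behind SIRT4 is not known. The knockdown change of SIRT4 was 0.30 (95% interval 0.888-fold to 1.71-fold by limma), and without the control library in PBS and the medium term it was 0.02.

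**Figure D2:**
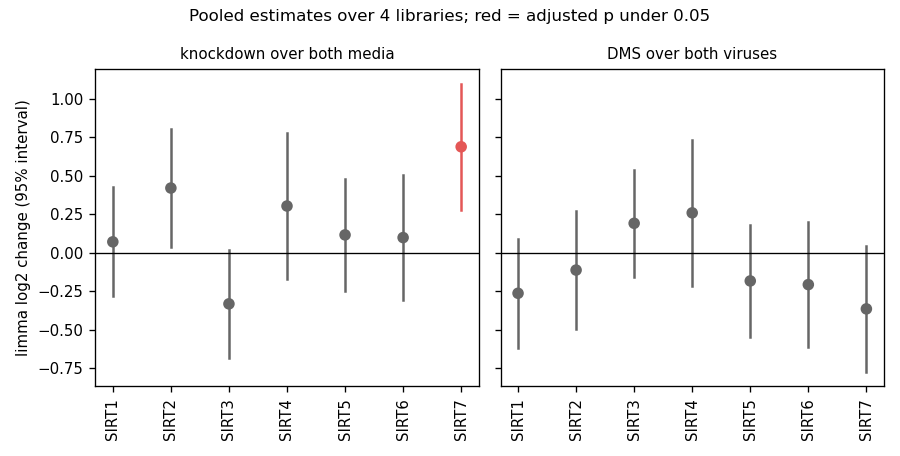
Limma log2 change of each sirtuin with its 95% interval, for the Myc shRNA over both media (left) and for DMS over both viruses (right), from 4 libraries. SIRT7 under the Myc shRNA is the only estimate with an adjusted p under 0.05, and SIRT3 is the only member below 0 in the left panel.

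Compared as pairs of libraries, no sirtuin reached a 2-fold difference on the log2(FPKM + 1) scale in any of the 4 comparisons. For the knockdown in PBS 0 of 7 members were higher and 0 of 7 lower, beside 14.4% of features at least 2-fold higher and 17% lower. For the knockdown in DMS the background was 9.7% higher and 3.58% lower, a split that became 912 higher and 677 lower on the FPKM as deposited, from 1087 and 401. At a 1.5-fold difference SIRT4 and SIRT7 were higher in PBS (26.1% of features higher, 27.9% lower) and SIRT7 in DMS (20.1% higher, 17.1% lower), and 0 of 7 were lower in either medium. The median size of the knockdown ratio over the members was 0.37 log2 units in PBS and 0.23 in DMS, below the 0.65 and 0.44 over all features. SIRT4 depended on the pseudocount, being 2.30-fold higher in the knockdown in PBS on the FPKM themselves and 0.60 on the log2(FPKM + 1) scale.

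The knockdown ratio stood closer to 0 in DMS than in PBS for SIRT3, SIRT4 and SIRT7 and further above 0 for SIRT2 and SIRT6, while those of SIRT1 and SIRT5 were just below 0 in PBS and above 0 in DMS. For SIRT7 the log2 ratio was 0.76 in PBS and 0.61 in DMS, and for SIRT3 it was -0.38 and -0.29. For SIRT2 it was 0.37 and 0.47. MYC itself went from -6.69 to -1.40 on the same scale. With 1 library per group the difference between the media has no test.

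Within DMS against PBS most sirtuins stood lower and SIRT3 stood higher, and no member passed the test. In control cells 5 of 7 members were below 0 with a median log2 ratio of -0.23, beside -0.04 for all features, of which 41.3% were above 0. The median size of the ratio was 0.29 log2 units over the members and 0.13 over all features in control cells, and 0.16 and 0.26 in knockdown cells. SIRT1 stood at percentile 6.03 of all features, SIRT5 at 9.12 and SIRT7 at 10.1 in control cells, with log2 ratios of -0.37, -0.30 and -0.29. SIRT4 stood at the other end, at percentile 98.8 with 0.56 on the log2(FPKM + 1) scale, which rests on the low control library in PBS. In knockdown cells 6 of 7 members were below 0 with a median of -0.07, beside 0.0047 for all features, of which 50.6% were above 0, and SIRT7 was the lowest at -0.44. The backgrounds of 2-fold calls were 0.0803% higher and 0.42% lower in control cells and 5% higher and 0.455% lower in knockdown cells, with 0 of 7 members called. At 1.5-fold they were 1.06% and 2.12% in control cells and 12.9% and 5.04% in knockdown cells, again with 0 of 7 members.

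SIRT3 was the 1 member with a ratio above 0 under DMS in both viruses, at 1.12-fold in control cells and 1.20-fold in knockdown cells. Over both viruses its log2 change was 0.19 (95% interval 0.895-fold to 1.45-fold by limma) and that of SIRT7 was -0.37 (95% interval 0.585-fold to 1.03-fold by limma). The limma fit called 0 of 7 members for DMS and 0% of all features in either direction. At an unadjusted p under 0.05 the limma fit held 0 of 7 members and 1418 of 11202 features. Each library enters 2 of the 4 comparisons, so their ratios share libraries.

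**Figure D3:**
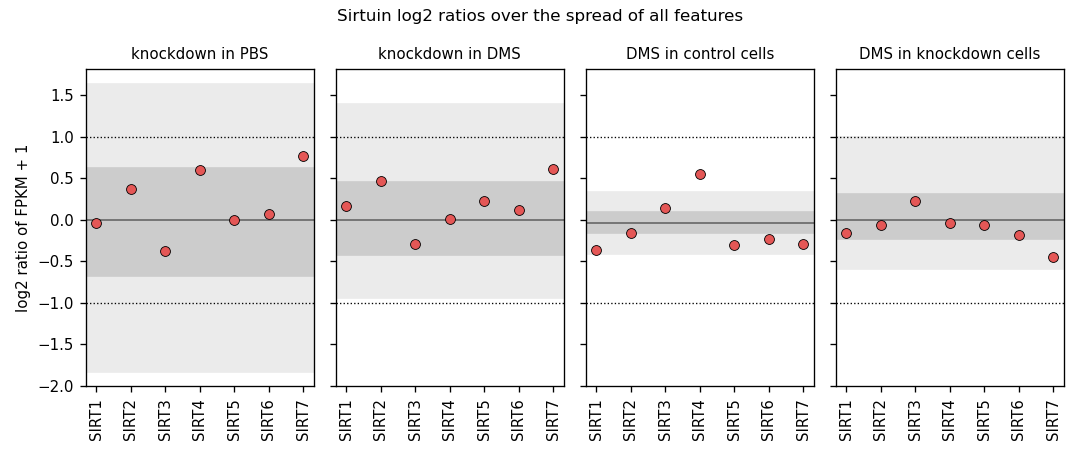
Log2 ratio of FPKM + 1 for each sirtuin in the 4 comparisons of 2 libraries, over grey bands that hold the middle 50% (dark) and 90% (light) of all 11202 features, with a line at their median and dotted lines at a 2-fold difference. No sirtuin reaches a dotted line, and under DMS in control cells SIRT4 lies above the light band.

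Measured within a library, where the scaling between libraries cancels, SIRT7 and SIRT2 took a larger and SIRT1, SIRT3 and SIRT6 a smaller share of the family in the knockdown, in both libraries beyond both controls. SIRT7 mRNA was 2.24 times the SIRT3 mRNA in control cells in PBS, 1.63 times in control cells in DMS, 5.20 times in knockdown cells in PBS and 3.16 times in knockdown cells in DMS. The 2 knockdown libraries lay above the 2 control libraries and the PBS library was the higher within each virus. SIRT7 over SIRT6 went from 0.727 and 0.696 in control cells in PBS and DMS to 1.19 and 0.992 in knockdown cells. SIRT3 made up 10.9% and 13.9% of the summed sirtuin FPKM in control cells in PBS and DMS and 6.59% and 9.13% in knockdown cells, whereas SIRT7 made up 24.4% and 22.7% and then 34.2% and 28.8%. SIRT6 made up 33.5% and 32.5% in control cells and 28.7% and 29.1% in knockdown cells, where its own level was 32.0 and 28.0 FPKM against 30.3 and 25.7. SIRT2 went from 18.2% and 18.5% to 19.3% and 21.3%, and SIRT1 from 8.95% and 7.67% to 7.08% and 7.21%. The level of SIRT1 itself was 8.10 and 6.05 FPKM in control cells in PBS and DMS, and 7.89 and 6.95 FPKM in knockdown cells. The 3 mitochondrial members together went from 15.0% and 18.6% to 10.7% and 13.6%. The summed level of all 7 was 90.5 and 78.9 FPKM in control cells in PBS and DMS, and 111 and 96.4 FPKM in knockdown cells. Shares sum to 100%, so a larger SIRT7 share lowers those of other members even where their own levels held. These shares are descriptions of 1 library per group and carry no test.

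**Figure D4:**
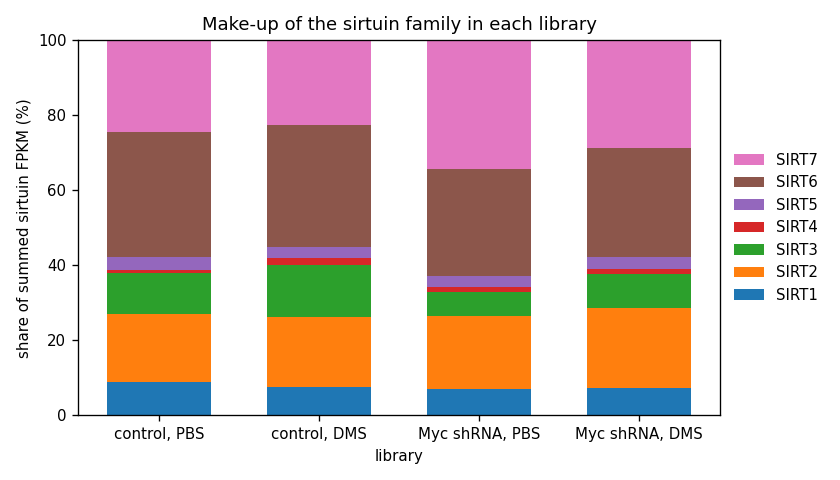
Share (%) of each sirtuin in the summed FPKM of all 7, for each of the 4 libraries. The SIRT7 share is 34.2% in the Myc shRNA library in PBS against 24.4% in its control, and the SIRT3 share is 6.59% against 10.9%.

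The loci add a limit for SIRT2 and SIRT3. On hg19 the tables place SIRT1 at chromosome 10, 69644427 to 69678147, SIRT4 at chromosome 12, 120740124 to 120751045, SIRT5 at chromosome 6, 13574506 to 13615412, SIRT6 at chromosome 19, 4174106 to 4182596 and SIRT7 at chromosome 17, 79869814 to 79876058. SIRT2 shares 1 entry (chromosome 19, 39369195 to 39399534) with NFKBIB, an inhibitor of NF-kB, and SIRT3 shares 1 (chromosome 11, 207511 to 236362) with RIC8A, a chaperone of G-protein alpha subunits, and a microRNA. The strand setting of the counting is not stated, so reads where these genes overlap may have been split between them. NFKBIB fell by 0.76 on the log2 scale in the knockdown (adjusted p = 0.0189 by limma), opposite in sign to SIRT2, and RIC8A was at -0.16 (adjusted p = 0.446 by limma).

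The genes beside the sirtuins differed in direction from one locus to the next. PSMD13, a proteasome lid subunit 445 bases from the SIRT3 entry, was at -0.49 (adjusted p = 0.0655 by limma), on the same side of 0 as SIRT3, while BET1L on the other side was at 0.15. SIRT7 lies 85 bases from MAFG, which was at 0.07, and 460 bases from the entry of PCYT2, a phospholipid synthesis enzyme that fell by 0.78 (adjusted p = 0.0102 by limma). SIRT5 lies 146 bases from the entry of NOL7, a nucleolar protein gene that fell by 0.80 (adjusted p = 0.0243 by limma), and RANBP9 in that entry was at 0.36. HERC4, 3508 bases from SIRT1, rose by 0.77 (adjusted p = 0.00811 by limma). DNAJC12 on the other side, 46489 bases away, fell by 1.62 (adjusted p = 0.00992 by limma). GFOD1, 86521 bases from SIRT5, fell by 0.51 (adjusted p = 0.0422 by limma). NPB in the entry of PCYT2 was at -0.06, and RINL, 275 bases from SIRT2, was at 0.31. PXN, in an entry 36549 bases from SIRT4, rose by 1.37 (adjusted p = 0.00326 by limma). Its antisense PXN-AS1 fell by 0.90 (adjusted p = 0.0119 by limma). Reads where this pair overlaps may have been split between them, as the strand setting is not stated. ANKRD24 and CREB3L3 beside SIRT6 and CCER2 beside SIRT2 stayed below 1 FPKM in every library. PLA2G1B, 8868 bases from SIRT4, was listed at 0.

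Among the members SIRT1, SIRT5 and SIRT6 had nearly the same pattern over the 4 libraries, and SIRT3 and SIRT7 the least alike. The Euclidean distance of centred log2(FPKM + 1) was 0.093 for SIRT1 and SIRT5, 0.098 for SIRT5 and SIRT6, 0.101 for SIRT1 and SIRT6, and 1.17 for SIRT3 and SIRT7. Over all features the nearest to SIRT7 were FERMT3 (distance 0.038, at 89.6, 73.1, 157 and 112 FPKM in the order of control in PBS and DMS and knockdown in PBS and DMS), RGS14 (0.038) and PASK (0.047). Nearest to SIRT3 were CEP128 (0.030), LAMTOR2 (0.034, at 141, 151, 107 and 126 FPKM) and MLH3 (0.037). The nearest to SIRT1 were PARN, ERMARD and NIPA2, to SIRT2 TMEM55A, TLK2 and UBXN4, to SIRT5 ARL14EP, PPWD1 and SMC5, and to SIRT6 ZNF143, GABPB1 and ECH1. SIRT4 had no feature closer than 0.079, with ZNF416, ETHE1 and PLEKHA4 nearest. With 4 libraries from 1 line such likeness is a description of these libraries.

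NAD, the cosubstrate of every sirtuin, is made and recycled by a list of enzymes of which 13 were kept. Among them 4 rose and 4 fell in the limma fit, near the background of 27.7% of all features in each direction, with a median log2 change of 0.16, beside -0.0039 for all features. KYNU (2.22 and 1.95 FPKM in control cells in PBS and DMS, 10.5 and 7.22 in knockdown cells) and KMO of the kynurenine route rose most, by 1.66 and 1.36. AFMID, an enzyme of the same route, fell by 1.62, from 48.7 and 61.4 FPKM to 9.24 and 31.2, and NMNAT3, which makes NAD in mitochondria, fell by 0.97. NAMPT, the rate-limiting enzyme of nicotinamide salvage, fell by 0.52 (adjusted p = 0.0385 by limma), from 13.0 and 11.6 FPKM to 7.51 and 9.13, and the mitochondrial NAD carrier SLC25A51 fell by 0.69, whereas NMRK1 and NMNAT1 rose by 0.85 and 0.65. NMNAT3 was also 1.02 log2 units higher in DMS in control cells, at 1.86 and 4.81 FPKM.

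Enzymes that share the reaction or the cosubstrate are set beside 27.7% of all features that rose and 27.7% that fell. Of 13 other NAD-consuming enzymes 6 rose and 1 fell (median 0.40), led by the interferon-induced PARP14 (2.83) and PARP9 (2.47), and SARM1 fell by 0.75. PARP2 was at -0.46 (adjusted p = 0.0513 by limma), and CD38, the main ectoenzyme that degrades NAD, was at -0.14. Of the 11 zinc-dependent deacetylases, which do not use NAD, 6 rose and 1 fell (median 0.47). HDAC9 rose by 0.91 and HDAC6, the other tubulin deacetylase, by 0.82, HDAC2 fell by 0.86, and HDAC3 was at -0.13. The sirtuins had a median of 0.11 with 1 that rose.

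The regulators and partners of sirtuins lay below 0 throughout. Of 6 kept members 2 fell and 0 rose (median -0.46), and with 27.7% of all features falling the count that fell is near the background. SKP2, a ubiquitin ligase receptor, fell by 1.18, from 33.5 and 34.2 FPKM in control cells in PBS and DMS to 11.0 and 18.8 in knockdown cells. HIC1, a repressor of SIRT1 transcription, fell by 0.91. CCAR2, an inhibitor of SIRT1, was at -0.41, RPS19BP1, an activator of SIRT1, at -0.36 and ESRRA, a nuclear receptor known to drive SIRT3, at -0.16, none past the threshold.

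The lists of known substrates, targets and partners are likewise read beside 27.7% of all features in each direction. Of 16 kept SIRT3 substrates 12 fell and 2 rose (median -0.67), where PPIF, the permeability-pore cyclophilin, fell by 2.18 and the superoxide dismutase SOD2 fell by 1.98, while ALDH2 rose by 1.21 and ACSS1 by 0.64. SOD2 was 29.7 and 26.2 FPKM in control cells in PBS and DMS, and 3.67 and 10.5 FPKM in knockdown cells. SDHA, the substrate the study follows, fell by 1.01, from 144 and 151 to 61.3 and 85.7 FPKM. Of 8 kept SIRT4 and SIRT5 substrates 2 fell and 0 rose (median -0.19), close to the background share. SOD1, the cytosolic superoxide dismutase, fell by 1.56 and DLAT, a pyruvate dehydrogenase subunit, fell by 1.18. Of 13 SIRT1 and SIRT2 substrates 4 fell and 2 rose (median -0.13), again near the background for those that fell. The tubulin gene TUBA1B fell by 1.23 and the DNA repair gene XRCC6 fell by 1.05, while FOXO1 rose by 0.95 and EP300 by 0.52. Of 11 kept genes listed as targets or partners of SIRT6 and SIRT7 6 fell and 2 rose (median -1.41). The nucleolar genes FBL and NPM1 fell by 1.76 and 1.72, while the glucose transporter SLC2A1 rose by 0.66 and ELK4 by 0.59. For DMS 0 genes of any of these lists passed the limma test.

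**Figure D5:**
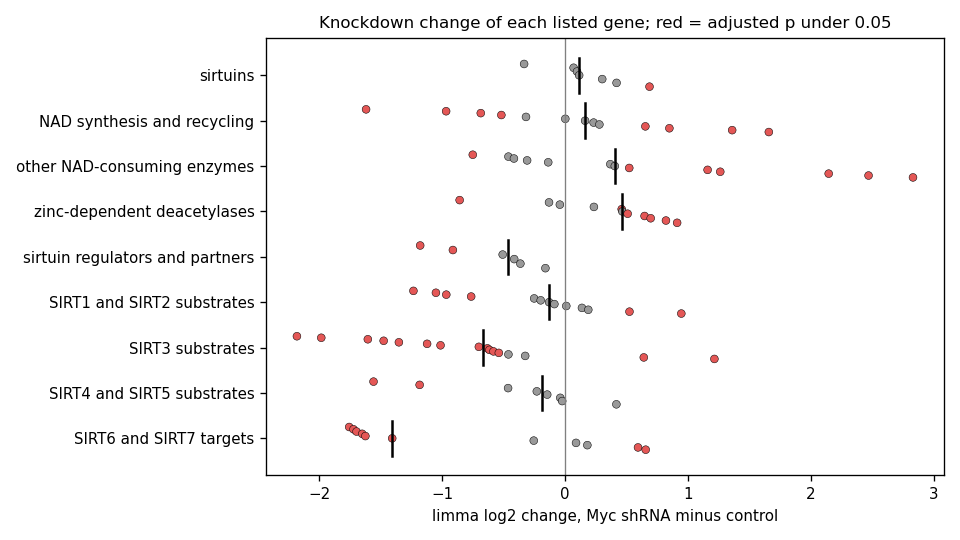
Limma log2 change for the Myc shRNA over both media of every kept gene of each list, 1 point per gene, with a black bar at the list median. The sirtuins lie between -0.33 and 0.69 with a median of 0.11, and the SIRT3 substrates have a median of -0.67.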

How the data were processed

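RNA-seq of CA46 cells was analysed; the 4 ChIP samples and 1 input sample were not analysed here. Tools named, without roles, per the submitters' processing notes are Cuffdiff 2.2.1, TopHat2 2.1.0, MACS 1.4.2, Bowtie2 2.2.6, fastp and bcl2fastq, with builds hg19 and dm6. Each table deposited by the authors holds 1 column of FPKM for 31016 rows. The unit was read from the values, which are fractional. Annotation, strand setting and the authors' scaling between libraries are not stated.

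Unnamed rows (3919) and 2012 small RNA symbols were left out, and rows of a symbol were summed. In 30 rows the name had become a date. FPKM were rescaled with the trimmed mean of each library's log2 ratios to the average library (trimming 30% of the ratios and 5% of the levels on either side, over features with a mean of at least 1 FPKM), with factors of 1.04, 1.03, 0.943 and 0.952 for control in PBS and DMS and knockdown in PBS and DMS. FPKM are rescaled unless called deposited. Log2 values are of FPKM + 1, which understates changes of low genes. The same minimum was used to keep features for testing. limma 3.58.1 (R 4.3.3) with an intensity trend used 1 residual and an estimated 5.00 prior degrees of freedom. Benjamini-Hochberg adjustment covered 11202 features, at a threshold of 0.05. A run on simulated data drew independent noise for each library, so it cannot vouch for p-values from 1 library per group. Any difference in DMS response between viruses enters the residual of the limma fit. Counts of list members cover those kept by the filter.

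Genes named are the sirtuins, MYC, the 2 highest and 2 lowest of each list by knockdown change, the nearest neighbours and the 3 features most alike; NAMPT, SLC25A51, NMRK1, NMNAT1, CD38, CCAR2 and SDHA were added after their values were seen, and some genes that the rule names are not reported here. The members and lists were chosen with earlier results of these data known. Sequences are RefSeq (GRCh38.p14). Alternatives were other scalings, pseudocounts, filters, fold thresholds, fits without a term, without a trend or without a library. Depth was not given, and no counting interval was computed.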

Additional observations from a re-analysis of the deposited data

Results flagged for a closer look

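SIRT1, SIRT5 and SIRT4 had ratios of opposite sign in the 2 arms of the crossed design, with 1 library per arm, so the difference was not tested. The knockdown log2 ratio of SIRT1 was -0.033 in PBS and 0.17 in DMS. That of SIRT5 was -0.0022 in PBS and 0.23 in DMS. The DMS log2 ratio of SIRT4 was 0.56 in control cells and -0.040 in knockdown cells, which rests on the control library in PBS at 0.658 FPKM.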

How the results depend on the processing

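Each group has 1 library and so no replicate number to block on. The only pairing was by medium, where the medium term of the limma fit matches control and knockdown within each medium. Members past 2-fold rose in number from 0 to 1 for the knockdown in PBS and to 1 for DMS in control cells at a pseudocount of 0.1, SIRT4 both times. At a 1.5-fold threshold they numbered 2 for the knockdown in PBS and 1 in DMS. In the limma knockdown fit the count of members that rose, 1, became 0 without the medium term. There 2609 features rose and 2260 fell, against 3106 and 3105. The count that fell, 0, became 1 on the FPKM as deposited, where 2615 features rose and 3625 fell. Fits without a library, also without the medium term, leave 1 library in a group, so only their log2 changes are given. With no filter on low values 1285 features fell against 3105. The sign of the knockdown change reversed on the FPKM as deposited for SIRT1 (-0.041) and SIRT6 (-0.024), where the median of all features moved to -0.11; without each library it ranged from -0.11 to 0.25 for SIRT1 (-0.011 without the knockdown library in PBS), from -0.036 to 0.27 for SIRT5 and from -0.019 to 0.21 for SIRT6. SIRT7 stayed positive on the other scalings and pseudocount (0.57 to 0.71) and SIRT3 negative (-0.45 to -0.34). Filters, trend and the medium term left both log2 changes as they were. Without the medium term the adjusted p by limma was 0.0564 for SIRT7 and 0.131 for SIRT3. Leaving out a library could not turn either sign, because both knockdown libraries lay beyond both control libraries. The log2 changes then ran from 0.46 to 0.91 for SIRT7 and from -0.45 to -0.22 for SIRT3. The causes were not tested. The low level of SIRT4 limits its precision.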
